A study of Arabidopsis thaliana with 12 samples.

Results

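Aquaporins are membrane channels that let water and small neutral solutes pass. The PIP and TIP aquaporins described here are 10 genes of Arabidopsis thaliana, a list of identifiers chosen by their raw counts over the CHX doses. All 10 were among the 12905 genes counted. The list holds PIP1A, PIP1B and PIP1C (also written PIP1;1, PIP1;2 and PIP1;3), then PIP2A, PIP2B (PIP2;1 and PIP2;2), PIP2;3 and PIP2;7, and then TIP1;1, TIP1;2 and TIP2;1. Because the list was selected on these counts, the values of the 10 genes are a description and no p-value is given for them.

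The libraries came from whole seedlings of wild type Col-0, 2 weeks old. Seedlings were kept for 2 h in cycloheximide (CHX) at 1, 10 or 100 µM, or at 0 µM as the control, all under light of 30 µE. CHX blocks the elongation step of cytosolic ribosomes, and the doses ask how transcript levels follow a graded block of translation. Each dose had 3 libraries made by bulk MARS-seq, which counts the 3′ ends of polyadenylated transcripts. The labels do not say whether the libraries of a dose are separate cultures, so errors and p-values cover no more than the scatter among these samples. The accession list of the study ties this record to another experiment, and the labels were followed.

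Plasma membrane intrinsic proteins (PIPs) sit in the plasma membrane, and tonoplast intrinsic proteins (TIPs) in the membrane of the vacuole. PIP1 proteins reach the plasma membrane best when they assemble with PIP2 proteins into tetramers, whereas PIP2 proteins get there on their own. TIPs let the vacuole take up or release water quickly and so buffer the volume of the cytosol. Plants adjust water flow through both groups by transcription, by phosphorylation, and by the delivery and removal of the proteins.

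The gene models, from the RefSeq annotation of TAIR10.1, showed what the 10 genes share. Each PIP gene had 4 exons and 3 introns, TIP1;1 and TIP1;2 had 1 intron, and TIP2;1 had 2. Every protein translated from the longest coding transcript held 2 copies of the NPA motif, the asparagine-proline-alanine signature of the aquaporin pore. Over aligned positions, identity between proteins was 88.5 to 95.5% among the PIP1 members, 77.1 to 96.8% among the PIP2 members and 62.5 to 85.7% among the TIP members. Between PIPs and TIPs it was 38.1 to 47.3%.

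PIP2B and PIP2;3 are the closest pair, with 96.8% identity of protein and 94.8% of coding sequence. They are neighbours on chromosome 2, transcribed away from each other with 2612 bases and 0 protein-coding genes between them. PIP2B spans chr2:15613368-15615022 on the minus strand and PIP2;3 spans chr2:15617635-15619155 on the plus strand. Their 3′ untranslated regions, where reads of a 3′ method collect, shared 52.0% of aligned columns. The last 90 coding bases of both genes are shown so that their differences near the 3′ end can be seen. Both are written 5′ to 3′ on the coding strand, and capitals mark the 10 positions where they differ. They lie at chr2:15613624-15613713 for PIP2B and chr2:15618848-15618937 for PIP2;3.
PIP2B: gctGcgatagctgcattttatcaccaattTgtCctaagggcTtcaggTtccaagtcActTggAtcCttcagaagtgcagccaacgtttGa
PIP2;3: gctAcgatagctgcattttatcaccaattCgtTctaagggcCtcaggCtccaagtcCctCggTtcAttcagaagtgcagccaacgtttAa
Reads that fall wholly on a stretch without a capital cannot be assigned to either gene, so the split between PIP2B and PIP2;3 carries that uncertainty.

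The 250 bases before each gene's annotated start were searched on both strands for 8 short motifs, since the 10 genes moved together. The letters were CACGTG (G-box), ACGTG (ABRE core, which lies inside every G-box), CCGAC (DRE core), TTGAC (W-box core), AAACCCTA (telo-box), TGGGC (site II), GATAAG (I-box) and AAAATATCT (evening element). The sequences of 3 members are shown because they hold the I-box, read in reverse as CTTATC, in both PIP1A and PIP1B, and 3 different motifs in TIP1;2, the TIP with the largest change. Capitals mark the matched letters, and the windows are chr3:22732993-22733242 (plus strand), chr2:18909831-18910080 (plus strand) and chr3:9723905-9724154 (minus strand).
PIP1A: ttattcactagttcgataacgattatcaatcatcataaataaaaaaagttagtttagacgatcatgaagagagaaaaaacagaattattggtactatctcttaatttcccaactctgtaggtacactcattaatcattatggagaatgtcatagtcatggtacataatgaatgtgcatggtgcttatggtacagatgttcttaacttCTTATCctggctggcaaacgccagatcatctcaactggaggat
PIP1B: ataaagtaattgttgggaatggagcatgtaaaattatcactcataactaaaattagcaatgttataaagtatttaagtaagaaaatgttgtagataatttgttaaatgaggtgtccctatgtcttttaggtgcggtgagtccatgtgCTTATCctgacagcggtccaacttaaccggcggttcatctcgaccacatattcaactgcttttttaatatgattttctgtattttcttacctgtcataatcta
TIP1;2: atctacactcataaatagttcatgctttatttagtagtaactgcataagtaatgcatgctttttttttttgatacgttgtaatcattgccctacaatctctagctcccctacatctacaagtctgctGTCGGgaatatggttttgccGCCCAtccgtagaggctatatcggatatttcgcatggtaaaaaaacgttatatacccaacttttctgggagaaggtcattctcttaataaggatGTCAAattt
At least 1 motif was present in 7 of the 10 windows. The W-box core was in 4 of 10 members (PIP1C, PIP2A, PIP2;7 and TIP1;2), against 44.9% of 27443 protein-coding genes. The DRE core was in 3 (PIP1C, TIP1;1 and TIP1;2), against 12.0% of all genes. The I-box was in 2 of 10, against 12.3%, and site II was in PIP2;7 and TIP1;2, against 22.7%. The ABRE core was in TIP1;1 alone, against 22.9%. The G-box, the telo-box and the evening element, found in 6.49%, 4.49% and 2.36% of all genes, were in none of the 10. Among the 25 other aquaporins the W-box core was in 15, the DRE core in 1, and the I-box, site II and ABRE core in 3 each. The G-box, the telo-box and the evening element were in 0 of these 25. No motif was shared by all members, and a match is only a run of letters.

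Library totals ran from 1073063 to 2036594 counts in the control, and from 2317260 to 2564533, from 2823964 to 3724564 and from 1641387 to 2836374 in the 1, 10 and 100 µM groups. The unit of level, CPM, is the count divided by the library total after correction with TMM (a trimmed mean of log ratios between libraries). Log2 changes are edgeR estimates ± SE, and the SE was derived as the absolute change over the square root of edgeR's F statistic. A gene was called when its adjusted p was below 0.05 and its change at least 2-fold. With TMM the median gene changed by 0.02 against 0 µM at every dose. At 100 against 0 µM, 14.9% of genes were called lower and 23.8% higher. Scaling to total counts alone made this 43.7% lower and 14.3% higher, with the median gene at −1.01. Scaling to reference genes made it 6.30% lower and 32.0% higher, with the median gene at 0.54. That scaling sums the counts of the reference genes. UBQ10 (27942 counts at 0 µM) and EF1A (13853) outweighed the others, of which GAPC2 had most (2038). With TMM, UBQ10 was at 139%, 87.2% and 60.0% of its 0 µM mean at 1, 10 and 100 µM. EF1A was at 112%, 88.4% and 91.9%. A scaling shifts all genes of a library alike, so the distance of the members' median from the median gene was −2.18, −2.19 and −2.18 with these scalings by construction. Levels are read relative to the median gene.

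The summed level of the 10 aquaporins, with TMM, was lower at each higher dose, with most of the difference in place at 10 µM. It averaged 7863 ± 1080 CPM in the control (SD, n = 3). It was 4619 ± 345 CPM with 1 µM, 1946 ± 227 with 10 µM and 1517 ± 27.4 with 100 µM. The sums of the 4 doses did not overlap, running from 7130.05 to 9103 CPM in the control and from 4259.8 to 4948, from 1756 to 2197 and from 1499 to 1548 CPM in order of dose. As a share of all reads, which is the same as scaling to total counts, the 10 genes took 1.17% ± 0.215 in the control and 0.537% ± 0.0569, 0.159% ± 0.0220 and 0.109% ± 0.00630 with 1, 10 and 100 µM. In whole seedlings, fewer cells of a type and less RNA per cell cannot be told apart.

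All 10 genes met the thresholds for a lower call at 10 and at 100 µM against 0 µM, where 12.1% and 14.9% of all genes did. At 1 µM 4 of 10 met them, against 3.12% of all genes. Between 10 and 1 µM 6 of 10 met them, against 4.98%. Between 100 and 10 µM 0 of 10 did in edgeR or in DESeq2, against 2.48% of all genes in edgeR. The libraries lay below those of 0 µM without overlap for 8 members at 1 µM and for 10 at both higher doses, against 15.1%, 24.1% and 24.3% of all genes. They did so for 9 members between 10 and 1 µM, against 20.6%, and for 5 between 100 and 10 µM, against 11.5%. The same libraries had chosen the members, so nothing is read from these shares. The median log2 change against 0 µM was −0.87, −1.77 and −2.16 in order of dose, −1.14 for 10 against 1 µM and −0.36 for 100 against 10 µM (−0.050 with scaling to reference genes). The 3 comparisons with 0 µM share their control libraries.

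**Figure D1:**
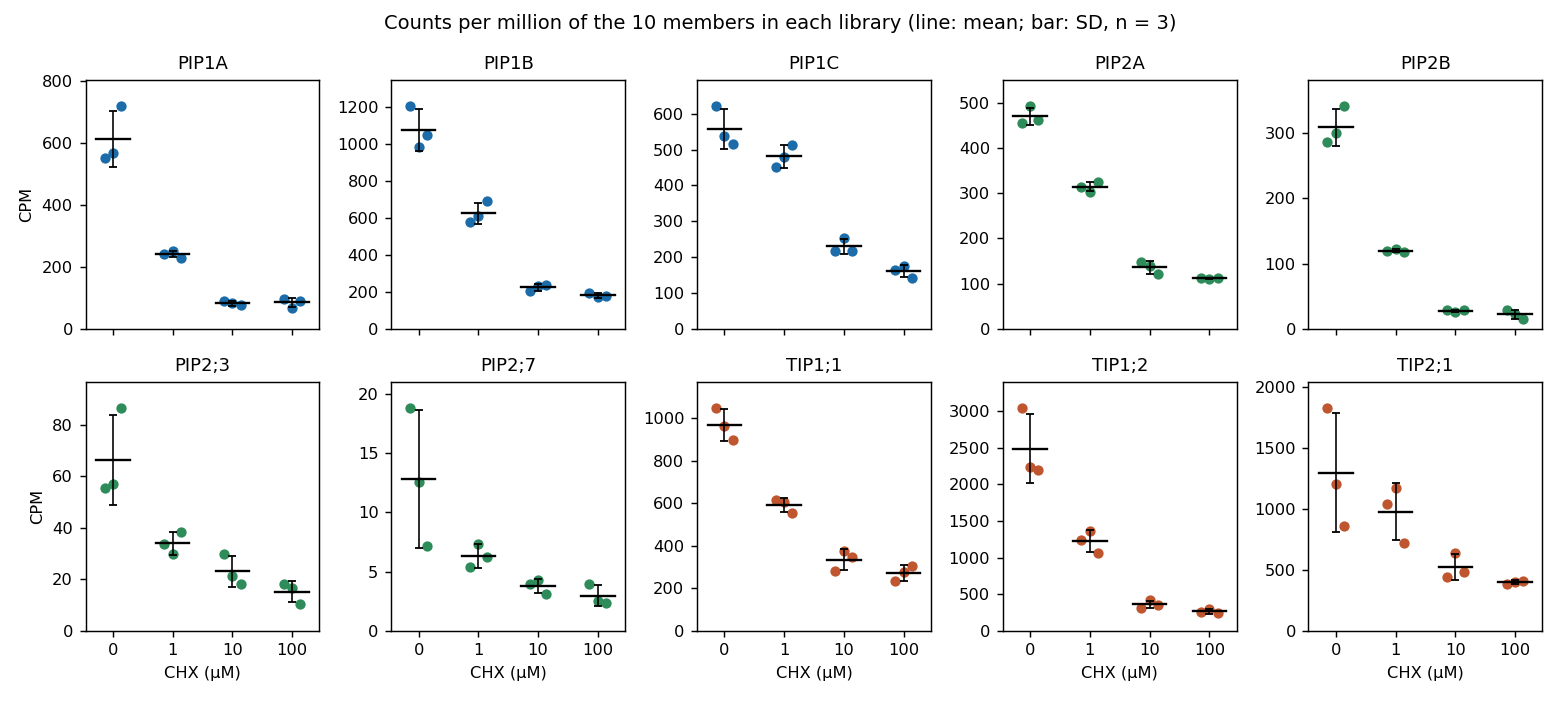
CPM (y axis, linear, from 0) of each of the 10 genes in the 12 libraries, by CHX dose in µM (x axis). Points are libraries, lines are means and bars are SD (n = 3), and in all 10 panels the libraries at 10 and 100 µM lie below all those at 0 µM.

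The 3 PIP1 genes differed in how far they were lowered at the smallest dose. PIP1A (AT3G61430), a widely expressed PIP1, had 551, 568 and 717 CPM at 0 µM, 242, 249.7 and 229.5 at 1 µM, 90.8, 81.5 and 75.1 at 10 µM, and 96.9, 67.5 and 90.7 at 100 µM. The libraries at 10 and 100 µM overlapped, and the means were 13.5% and 13.9% of that at 0 µM. Its log2 change was −1.35 ± 0.17 at 1 µM, −2.89 ± 0.19 at 10 µM and −2.85 ± 0.19 at 100 µM. On the log2 scale 101% of the difference seen at 100 µM was present at 10 µM, the highest such share among the 10 genes.

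PIP1B (AT2G45960), which carries water and is known for its part in CO2 uptake by leaves, had 1202, 980.5 and 1045 CPM at 0 µM, 577, 611 and 689 at 1 µM, 202.5, 234 and 236 at 10 µM, and 194.5, 173 and 174 at 100 µM. No 2 doses overlapped. Its log2 change was −0.78 ± 0.16, −2.26 ± 0.17 and −2.58 ± 0.17 in the order of the doses.

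PIP1C (AT1G01620) was the least changed member at 1 µM. It had 621, 537 and 515 CPM at 0 µM, 450.2, 480.0 and 512 at 1 µM, 217, 255 and 218 at 10 µM, and 163, 176 and 143 at 100 µM. The 1 µM libraries lay only just below those at 0 µM. Its log2 change was −0.21 ± 0.16 at 1 µM, −1.28 ± 0.16 at 10 µM and −1.80 ± 0.17 at 100 µM, and 11.9% of the difference at 100 µM was present at 1 µM. PIP1A and PIP1C encode proteins 95.5% identical, yet their means at 1 µM were 39.3% and 86.2% of those at 0 µM.

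Among the PIP2 genes, PIP2B had the largest log2 change of the 10 at 10 and 100 µM, and at 1 µM it and PIP1A were within 1 SE of each other. PIP2B (AT2G37170), an aquaporin of root water uptake, had 287, 300.3 and 341 CPM at 0 µM, 119.9, 122 and 118 at 1 µM, 28.2, 26.1 and 29.1 at 10 µM, and 28.6, 23.2 and 15.2 at 100 µM. Each dose lay below the one before except 100 µM, where 1 library overlapped those at 10 µM. The mean at 100 µM was 7.21% of that at 0 µM, and the log2 change was −1.37 ± 0.17, −3.48 ± 0.19 and −3.81 ± 0.21 in the order of the doses.

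PIP2;3 (AT2G37180), first described under the name RD28 as a desiccation-responsive gene, had 55.6, 57.05 and 86.3 CPM at 0 µM, 33.8, 29.7 and 38.5 at 1 µM, 29.8, 21.5 and 18.1 at 10 µM, and 18.3, 16.6 and 10.5 at 100 µM. The treated libraries lay below the 0 µM libraries at all doses, whereas neighbouring doses above 0 µM overlapped. Its log2 change was −0.97 ± 0.23 at 1 µM, −1.51 ± 0.24 at 10 µM and −2.14 ± 0.26 at 100 µM, and 70.5% of the difference at 100 µM was present at 10 µM, the lowest share of the 10.

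The 2 neighbours thus differed in the size of their change. The ratio of PIP2B counts to PIP2;3 counts was 5.15, 5.26 and 3.95 at 0 µM, 3.55, 4.11 and 3.06 at 1 µM, 0.944, 1.22 and 1.61 at 10 µM, and 1.57, 1.39 and 1.44 at 100 µM. It averaged 4.79 ± 0.727, 3.57 ± 0.526, 1.26 ± 0.335 and 1.47 ± 0.0880 (SD, n = 3). The ratios at 10 and 100 µM lay below all those at 0 and 1 µM. The counts are not per length, so only the change of the ratio is read, and it depends on how reads of these similar genes were assigned.

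**Figure D2:**
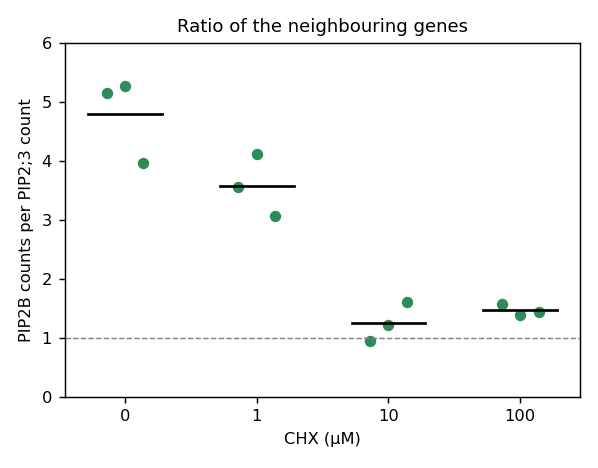
Number of PIP2B counts for each PIP2;3 count (y axis, linear) in the 12 libraries by CHX dose in µM (x axis). Points are libraries, lines are means and the dashed line marks equal counts, and the means are 4.79, 3.57, 1.26 and 1.47 in the order of the doses.

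PIP2A (AT3G53420), a much studied aquaporin of roots and guard cells, had 456, 492 and 462 CPM at 0 µM, 315, 304 and 324 at 1 µM, 147, 139 and 121 at 10 µM, and 113, 109.8 and 112 at 100 µM. The 4 doses formed separate groups with little spread. Its log2 change was −0.58 ± 0.15, −1.79 ± 0.16 and −2.08 ± 0.16 in the order of the doses.

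PIP2;7 (AT4G35100), a PIP2 studied in salt stress, was covered thinly, with 59, 20 and 16 counts at 0 µM, 15, 22 and 16 at 1 µM, 12, 13 and 7 at 10 µM, and 5, 5 and 4 at 100 µM. These gave means of 12.8 ± 5.80, 6.30 ± 0.999, 3.79 ± 0.623 and 2.94 ± 0.894 CPM (SD, n = 3). The 0 µM libraries overlapped those at 1 µM and not those at 10 or 100 µM. The log2 change was −1.04 ± 0.35, −1.76 ± 0.37 and −2.18 ± 0.43, and without 0 µM replicate 1 it was −0.57, −1.28 and −1.74.

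Of the TIP genes, TIP1;2 was lowered most at the doses of 10 and 100 µM. TIP1;2 (AT3G26520), a vacuolar water channel, had 3039, 2238 and 2195 CPM at 0 µM, 1246, 1364 and 1064 at 1 µM, 315, 417 and 356 at 10 µM, and 264, 299 and 237.5 at 100 µM. No 2 doses overlapped, and the mean at 100 µM was 10.7% of that at 0 µM. Its log2 change was −1.02 ± 0.18, −2.78 ± 0.19 and −3.22 ± 0.20.

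TIP1;1 (AT2G36830), known as gamma-TIP and a widely used marker of the large vacuole, had 1045, 962 and 897 CPM at 0 µM, 617, 606 and 554 at 1 µM, 281, 377 and 346 at 10 µM, and 233, 278 and 306 at 100 µM. Libraries overlapped only between 10 and 100 µM. The log2 change was −0.71 ± 0.17, −1.53 ± 0.17 and −1.83 ± 0.17. TIP1;1 and TIP1;2 encode proteins 85.7% identical, and their means at 100 µM were 28.1% and 10.7% of those at 0 µM.

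TIP2;1 (AT3G16240), known as delta-TIP and able to carry ammonia as well as water, had a wide spread among the control libraries. It had 1827, 1208 and 864 CPM at 0 µM, 1042, 1175 and 724 at 1 µM, 440.2, 643 and 484.5 at 10 µM, and 385, 403 and 412 at 100 µM. The groups at 0 and 1 µM overlapped, and those at 10 and 100 µM lay below both. The log2 change was −0.41 ± 0.23, −1.32 ± 0.24 and −1.70 ± 0.24, and without 0 µM replicate 1 it was −0.05, −0.94 and −1.37.

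By subfamily, the dose course was alike. The summed PIP1 level at 1, 10 and 100 µM was 60.0%, 23.9% and 19.0% of that at 0 µM. For the PIP2 members these shares were 55.2%, 22.2% and 17.7%, and for the TIP members 58.8%, 25.6% and 19.7%. Whether the subfamilies differ was not tested. Within each subfamily the genes spread more widely than the subfamilies did, from 7.21% (PIP2B) to 30.8% (TIP2;1) of the 0 µM mean at 100 µM. The profile of each gene over the 12 libraries correlated with the mean profile of the other 9 at Pearson's r of 0.901 (PIP2;3) to 0.995 (TIP1;2), on log2 CPM, with the 12 libraries in common and the doses setting most of the range.

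**Figure D3:**
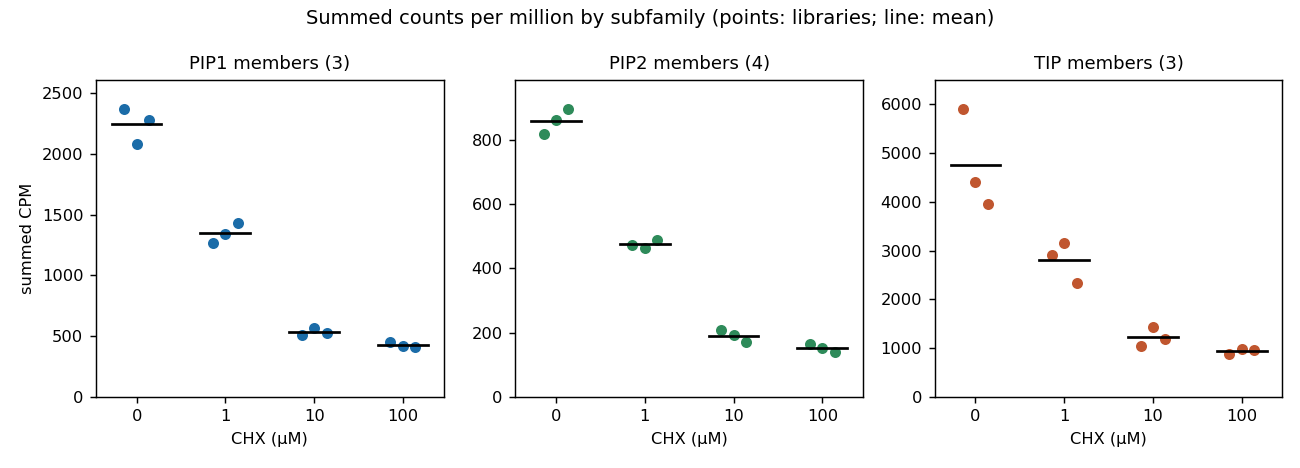
Summed CPM (y axis, linear, from 0) of the 3 PIP1, 4 PIP2 and 3 TIP members in the 12 libraries, by CHX dose in µM (x axis). Points are libraries and lines are means, and at 100 µM the means are 19.0%, 17.7% and 19.7% of those at 0 µM.

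**Figure D4:**
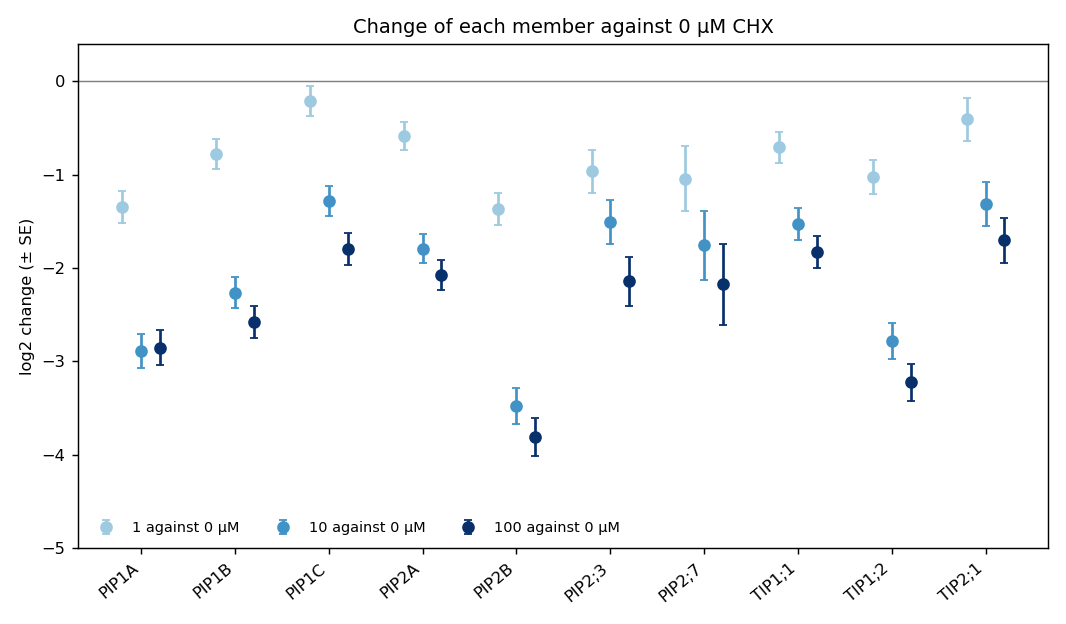
The log2 change (y axis, ± SE from edgeR) of each of the 10 genes (x axis) at 1, 10 and 100 µM against 0 µM CHX, from 3 libraries a dose. The points at 100 µM run from −1.70 (TIP2;1) to −3.81 (PIP2B), and PIP1A is the gene whose points at 10 and 100 µM are closest.

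The other aquaporins of the genome were used to ask whether lower levels were limited to the 10 genes. Of 25 others, 16 were counted and 9 were not analysed here. In edgeR with Benjamini-Hochberg adjustment over 12905 genes, 9 of the 16 were called lower at 100 against 0 µM and 7 at 10 against 0 µM, where 14.9% and 12.1% of all genes were. None was called higher at 10 or 100 µM, where 22.4% and 23.8% of all genes were, and 0 were higher at an unadjusted p below 0.05 or in DESeq2. At 1 µM 0 were called in either direction, also in DESeq2, against 3.12% of all genes lower and 13.5% higher, while 5 were lower and 1 higher at an unadjusted p below 0.05. Their median log2 change was −0.40, −1.33 and −1.29 at 1, 10 and 100 µM. With scaling to reference genes 2 calls were left at 100 µM (PIP1;5 and TIP4;1), with the direction of all 9 kept.

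Among other PIPs, PIP1;5 had 37.3, 45.8 and 40.4 CPM at 100 µM, against 168, 145 and 134 at 0 µM, and fell by 1.85 ± 0.18 on the log2 scale (adjusted p = 2.56e-08, edgeR). PIP2;6 had 136, 109 and 122 CPM at 100 µM, against 357.5, 298 and 373 at 0 µM, a change of −1.49 ± 0.18 (adjusted p = 4.28e-07). PIP2;5 changed by −1.55 ± 0.53 at 100 µM (adjusted p = 0.0196, edgeR). Leaving out 0 µM replicate 2, 0 µM replicate 3 or 100 µM replicate 1 gave an adjusted p of 0.0569, 0.0807 or 0.0693. At 1 µM all PIP2;5 libraries lay above those at 0 µM, with means of 19.2 and 10.9 CPM. That change was 0.86 ± 0.40 and was not called (adjusted p = 0.123, edgeR). PIP1;4 had 73.1, 75.6 and 76.6 CPM at 100 µM, against 103, 115 and 138 at 0 µM, a change of −0.66 ± 0.18 that was under 2-fold (adjusted p = 0.00446). PIP2;4 gave −0.10 ± 0.27 (adjusted p = 0.793), with 16.7, 14.1 and 17.5 CPM at 100 µM, against 16.2, 23.8 and 12.5 at 0 µM.

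Among other TIPs, TIP2;2 changed by −1.32 ± 0.22 at 100 µM (adjusted p = 2.63e-05, edgeR), and TIP4;1 by −2.39 ± 0.68 (adjusted p = 0.00589). TIP2;3 gave −0.24 ± 0.55 (adjusted p = 0.742). TIP3;2, a TIP of seeds, had 1 count over the 100 µM libraries, against 16 at 0 µM, which is 11.4-fold lower with a 95% counting interval of 1.76 to 476. Its call was lost in DESeq2 (adjusted p = 0.0544), and when replicate 1 or 3 of 0 µM or replicate 1 or 2 of 100 µM was left out (adjusted p from 0.0558 to 0.106).

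NIPs and SIPs, the other aquaporin subfamilies counted, were also among the called genes. NIP5;1, a boric acid channel of roots, had its lowest level at 10 µM, with 216, 214 and 233 CPM at 0 µM, 116, 126 and 178 at 1 µM, 40.4, 57.1 and 53.9 at 10 µM, and 85.8, 110.3 and 89.5 at 100 µM. It changed by −2.13 ± 0.20 at 10 µM (adjusted p = 8.96e-09, edgeR) and by −1.21 ± 0.19 at 100 µM (adjusted p = 1.87e-05). NIP2;1, named after its values were seen, had 16 counts over the 10 µM libraries, 13 of them in 1 library, against 3 at 0 µM, a ratio of 4.48 with a counting interval of 1.28 to 24.0. It was not called at 10 µM (adjusted p = 0.170, edgeR) except without 10 µM replicate 2 (adjusted p = 0.0490). NIP6;1, a boric acid channel of the shoot, changed by −1.26 ± 0.36 at 100 µM (adjusted p = 0.00546). SIP1;1, found in the endoplasmic reticulum, had 1 count over the 100 µM libraries, against 14 at 0 µM, 9.94-fold lower with a counting interval of 1.51 to 420.3, and without 0 µM replicate 3, 100 µM replicate 2 or 100 µM replicate 3 its adjusted p was 0.0886 to 0.135 (0.0655 in DESeq2). SIP2;1 gave −1.59 ± 0.72 (adjusted p = 0.0723), and −1.87 (adjusted p = 0.0458) without 0 µM replicate 3.

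Proton pumps supply the gradients across the membranes that hold PIPs and TIPs. Of 7 plasma membrane proton pump genes counted, 3 were called lower at 100 µM (2 in DESeq2) and 0 higher in edgeR or DESeq2, with 5 lower and 1 higher at an unadjusted p below 0.05, against 14.9% of all genes called lower and 23.8% higher. AHA2, a main pump of the root, changed by −2.37 ± 0.30 (adjusted p = 1.06e-06, edgeR) and AHA1 by −1.47 ± 0.16 (adjusted p = 6.61e-08). AHA7, named after its values were seen, changed by −1.41 ± 0.56 (adjusted p = 0.0424), with adjusted p of 0.0531 to 0.160 when 0 µM replicate 1 or 2, or any of the 100 µM libraries, was left out (0.0730 in DESeq2). AHA3 and AHA11 gave −0.92 ± 0.32 (adjusted p = 0.0208) and −0.82 ± 0.25 (adjusted p = 0.0107), under 2-fold. AHA3 was called lower without 0 µM replicate 3 (−1.14, adjusted p = 0.00708) and without 100 µM replicate 1 (−1.40, adjusted p = 0.000854).

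Of 23 vacuolar proton pump genes, 4 were called lower at 100 µM, against 14.9% of all genes. None was called higher, also in DESeq2 or at an unadjusted p below 0.05, against 23.8% of all genes. VHP1, the vacuolar pyrophosphatase, had 166, 183 and 177 CPM at 100 µM, against 858, 680.2 and 727 at 0 µM, a change of −2.11 ± 0.17 (adjusted p = 8.69e-10, edgeR). The subunit genes VHA-c4 and VHA-G2 of the vacuolar ATPase changed by −1.68 ± 0.17 (adjusted p = 2.47e-08) and −1.13 ± 0.20 (adjusted p = 5.33e-05). VHA-e2 changed by −1.91 ± 0.65 (adjusted p = 0.0199), and its adjusted p was 0.0657 without 0 µM replicate 1 and 0.0851 without 100 µM replicate 2. The other 19 were not called. With scaling to reference genes AHA1, AHA7, VHA-G2 and VHA-e2 lost their calls and AHA2, VHP1 and VHA-c4 did not.

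Of 6 genes for delivery and turnover of PIPs, 1 was called higher and 1 lower at 100 µM, against 23.8% and 14.9% of all genes. SYP121, a plasma membrane syntaxin that helps deliver PIPs, had 1669, 2199 and 2280 CPM at 100 µM, against 147, 125 and 203 at 0 µM, and rose by 3.69 ± 0.22 on the log2 scale (adjusted p = 4.69e-12, edgeR). It was already higher at 1 µM, by 2.64 ± 0.21 (adjusted p = 1.76e-09). RMA2, one of the membrane-bound RMA ubiquitin ligases, had 11.9, 20.1 and 16.4 CPM at 100 µM, against 109.6, 115 and 112 at 0 µM, a change of −2.76 ± 0.20 (adjusted p = 1.70e-10). RMA1, a ligase of that family, gave 0.92 ± 0.17 at 1 µM (adjusted p = 0.00035) and −0.75 ± 0.19 at 100 µM (adjusted p = 0.00207), both under 2-fold. At 1 µM RMA1 was called higher without 0 µM replicate 1, 1 µM replicate 1 or 1 µM replicate 2 (1.03 to 1.05, adjusted p from 0.000387 to 0.000608). The vesicle protein gene VAMP722 had 50 counts in all and gave 1.96 ± 0.91 (adjusted p = 0.0812). RMA3, named after its values were seen, was called lower at 10 µM with 3 counts there, against 19 at 0 µM, 7.54-fold lower with a counting interval of 2.22 to 39.8, and that call was lost in DESeq2 (adjusted p = 0.064) and with adjusted p from 0.0554 to 0.142 without 0 µM replicate 1 or 3, or 10 µM replicate 2 or 3.

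**Figure D5:**
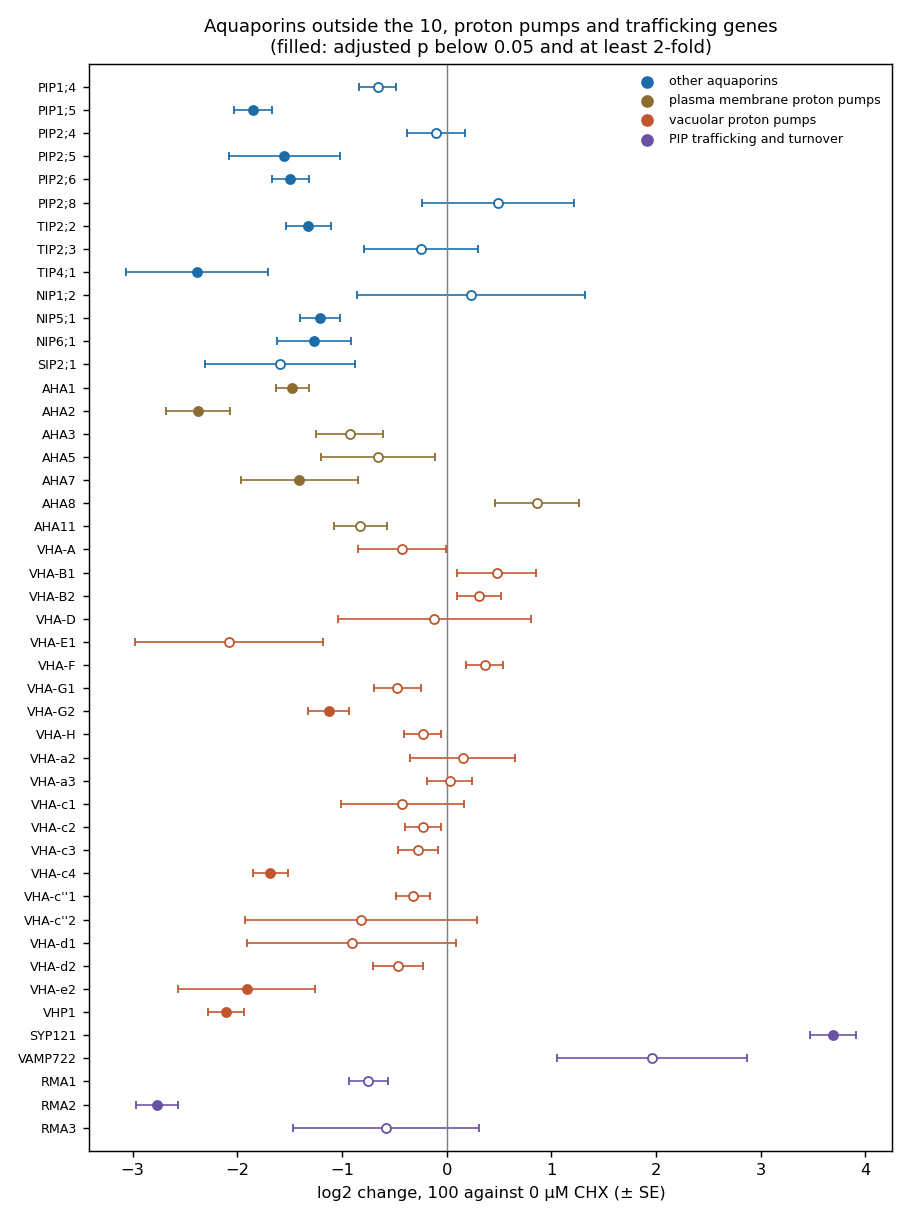
The log2 change at 100 against 0 µM CHX (x axis, ± SE from edgeR, 3 libraries a dose) of the aquaporins outside the 10 genes, the proton pumps and the trafficking genes (rows), without genes that had 3 or fewer counts at either dose. Filled points passed an adjusted p below 0.05 and 2-fold, and SYP121 is the one filled point above 0.

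Levels of root and leaf markers also moved with the dose, and several of the 10 aquaporins are strongest in roots. The 12 root markers counted of 14 summed to 350 to 468 CPM at 0 µM, 325 to 436 at 1 µM, 168 to 191 at 10 µM and 200.02 to 243 at 100 µM, and 8 of the 12 were called lower at 100 µM, against 14.9% of all genes. At 1 µM 1 root marker was called higher (EXPA7, 1.13 ± 0.33, adjusted p = 0.0155, edgeR) and 1 lower. The 10 leaf markers summed to 21087 to 22654 CPM at 0 µM, 12048 to 17014 at 1 µM, 11754 to 16005 at 10 µM and 10641 to 11743 at 100 µM, and 4 of 10 were called lower at 100 µM, against that 14.9%. The leaf marker CA1 was higher at 100 µM (0.78 ± 0.19, adjusted p = 0.00179, edgeR), under 2-fold. RBCS1A alone had a mean of 9958 CPM at 0 µM, so the leaf sum follows few genes. None of the markers had a sum of 0 counts at any dose, so both organs were present in the libraries. The part of root or leaf content in the levels of the 10 genes was not tested.

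The 8 genes outside the aquaporins whose log2 CPM followed the mean profile of the 10 most closely had Pearson's r of 0.98 to 0.99 over the 12 libraries, among 6699 genes with a mean of at least 10 CPM. They were the gene of the elongation factor EF1B gamma chain (AT1G57720), a thaumatin family gene (AT1G75800), a leucine-rich repeat gene (AT3G20820), FP3 (farnesylated protein 3), a tetraspanin gene (AT2G20230), AT3G62650 (uncharacterized), SKP1, a core subunit of SCF ubiquitin ligases, and SEP2 (stress enhanced protein 2). SEP2 had a mean of 10.8 CPM at 100 µM and 114 at 0 µM, and SKP1 had 322 and 1132 CPM at these doses. These likenesses are descriptions over libraries that share their doses.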

How the data were processed

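Bulk MARS-seq libraries from 12 samples were analysed, 3 for each CHX dose. According to the labels and the methods of the study, base calls were made with bcl2fastq 2.17.1.14 and trimming used cutadapt 1.8.3, after which the authors mapped reads to Araport11 with STAR. The authors made the deposited counts per gene with HTSeq, keeping genes with at least 5 reads in 1 library. Molecular identifiers were not filtered, so PCR copies were taken to be included and intervals cover counting error only. The authors also deposited a normalized signal (counts divided by size factors) and regularized log2 values from DESeq2, which were not used.

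Counts were scaled by TMM and fitted with edgeR 4.0.16 (R 4.3.3), with a quasi-likelihood model of 1 mean per dose on all 12 libraries and Benjamini-Hochberg adjustment over 12905 genes. A call needed an adjusted p below 0.05 and a 2-fold change. Groups with 1 to 3 counts are given as a ratio with an exact 95% binomial interval. At 0 µM, 3 counts over the group equal 0.430 CPM, and at 100 µM 0.606 CPM. The procedure was tested on simulated counts with known changes at 100 µM only. Far fewer genes were changed there than were called in the data, so the choice of scaling was not tested.

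The members and gene lists were chosen with earlier results of these data known. Named were all members, other aquaporins called at any dose or with at least 50 counts, the 4 genes with the smallest adjusted p at 100 µM of each further list, and the 8 genes most like the members. Sequences were read from the TAIR10.1 genome with the RefSeq annotation, aligned with Biopython 1.88. Coordinates are those of that annotation, and counting used Araport11 models. Protein-coding genes on the 5 chromosomes served as the background for motifs.

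Alternatives were RLE scaling, total counts, scaling to 11 reference genes, filterByExpr, a minimum of 5 counts, a replicate block, only the groups compared, DESeq2 1.42.0, no fold threshold and each library left out.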

Additional observations from a re-analysis of the deposited data

How the results depend on the processing

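Across the alternatives 2334 values were taken as unchanged. Among these, log2 changes kept their direction and side of the threshold or moved by less than 1 SD. Counts of calls stayed within a set ratio of the count with TMM. So 13 other aquaporins lower at 100 µM with total counts, against 9 with TMM, are among the 2334. Another 59 log2 values moved by more than 1 SD. Of the rest, 53 gained a call or rose in count and 47 lost a call or fell in count. The other 22 changed sign, all in comparisons where the gene was not called with TMM in edgeR. Part of the 2334 was fixed in advance. The lowest maximum count of a gene was 6, so the minimum of 5 counts removed no gene. Dropping the fold threshold left every log2 change as it was. At 1 µM, TIP2;3 (0.012) was −0.035 with RLE scaling, −0.33 with total counts, −0.30 with reference genes, −0.0056 with the replicate block, −0.0036 in DESeq2, and −0.56 to 0.52 with 1 library left out. VHA-G2 (0.041) was −0.016, −0.30 and −0.27 with these scalings, −0.015 in DESeq2, and −0.029 to 0.19 with 1 library left out. With reference genes RMA1 was 0.034 at 10 µM, and PIP2;4 and TIP2;3 were 0.42 and 0.27 at 100 µM. With 1 library left out PIP2;4 was −0.28 to 0.15 and TIP2;3 −0.51 to 0.13 at 100 µM, and PIP2;5 −0.62 to 0.072 at 10 µM. With total counts, 9.68%, 38.2% and 43.7% of all genes were called lower at 1, 10 and 100 µM. Other aquaporins called lower then numbered 3, 13 and 13 of 16 at these doses, and members lower at 1 µM numbered 7 of 10. The members' medians were −1.22, −2.63 and −3.20 at 1, 10 and 100 µM and −1.64 for 10 against 1 µM. At 100 µM 23 pump and trafficking genes were called lower, against 8 with TMM. With scaling to reference genes, 8.33% and 6.30% of all genes were called lower at 1 and 100 µM. Other aquaporins called lower then numbered 1 at 1 µM and 2 at 100 µM, and members lower at 1 µM numbered 7 of 10. The members' medians were −1.18, −1.55 and −1.63, then −0.59 for 10 against 1 µM and −0.050 for 100 against 10 µM. At 100 µM 4 pump and trafficking genes were called lower. These shifts follow from the scaling of the median gene. With no fold threshold, 4 other aquaporins and 8 members were lower at 1 µM. The share of all genes without that threshold was not computed, so nothing is read from these counts. Leaving out 1 library at a time gave medians from −0.92 to −0.64 at 1 µM (−0.64 without 0 µM replicate 1), 2 to 4 members lower at 1 µM (2 without 1 µM replicate 1), and 0 to 1 other aquaporins higher at 10 µM (1 without 10 µM replicate 2). Libraries with equal replicate numbers were not treated as pairs, and the labels do not say what equal numbers share. Their deviations from the dose means correlated at −0.18 to 0.29 (median 0.090, above 0.1 in 9 of 18 pairs). Pairs of other numbers gave −0.33 to 0.25 (median −0.082, above 0.1 in 6 of 36). A weak likeness between equal numbers is therefore possible. With a replicate block the members' median was −2.12 at 100 µM, and 9 other aquaporins were lower there, against 14.8% of all genes. VAMP722 was called higher with that block (log2 change 2.21, adjusted p = 0.0309, edgeR). It was also called higher with scaling to reference genes (2.47, adjusted p = 0.0377) and without 100 µM replicate 2 (2.43, adjusted p = 0.0414). Depth limits genes such as TIP3;2, SIP1;1 and PIP2;7.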
